A study of Mus musculus with 100 samples.

Results

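Nuclear receptors and the coregulators that bind them form the set of 31 genes described here, taken by name from a list and found in the data by mapping Ensembl transcripts to gene symbols. All 31 had a transcript, out of 32153 genes with one in the whole series. The list holds 26 receptors, sorted here by ligand, and 5 coregulators, 4 of them coactivators (Ncoa1, Ncoa2, Ncoa3 and Med1) and 1, Nrip1, that is better known in fat as a corepressor. The data are messenger RNA of mouse adipose tissue with and without GPS2, a small subunit of the NCoR and SMRT corepressor complexes, in adipocytes. The question was which genes change when adipocytes lose it, on normal chow, after high fat feeding and with beta-adrenergic stimulation.

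Each of the 5 tables compared samples titled knockout with samples titled wild type. The CD table held intra-abdominal fat at 19 weeks of age (knockout n = 3, wild type n = 3) and is taken as the normal chow of the series' design. The HFD table held intra-abdominal fat at 11 weeks (n = 4 and 4), with 4 weeks of high fat diet in its name. The Epi table held intra-abdominal fat (n = 3 and 3) and the Adipo table intra-abdominal adipocytes (n = 2 and 3), both at 19 weeks and both with 12 weeks of high fat diet in the name. Inguinal fat of mice aged 8 weeks made up the BA table, from the beta-adrenergic samples (n = 4 and 4). The strain label gave floxed Gps2 alleles with Cre under the Adipoq promoter, which is active in mature adipocytes, for every sample, and the titles alone gave the genotype. Whether the wild-type mice carried the Cre or the floxed alleles is thus not known. Other cells of whole fat keep their Gps2. The labels do not tie replicates to individual animals, so the p-values cover no more than the scatter among these samples, which may be technical.

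Nuclear receptors are transcription factors whose ligand-binding domain switches between partners. Without an activating ligand many of them hold corepressor complexes that contain NCoR or SMRT, histone deacetylase 3, TBL1 and GPS2. Ligand binding releases these and recruits p160 coactivators (Ncoa1, Ncoa2 and Ncoa3) and the mediator complex through Med1. In fat, PPAR gamma with its partner RXR drives adipocyte differentiation, glucocorticoids and thyroid hormone act on lipid turnover, and oestrogen receptor alpha limits fat mass.

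Recovered reads per replicate ranged from 29342792 to 63232066 over all tables. Values of a CD, HFD or BA replicate are means over 4 libraries, and a numbered library below is such a replicate. Gps2 itself did not pass the test in any table, with log2 fold changes from 0.01 to 0.15. The measured transcript is full length and which exons the knockout removes is not known here, so it does not check the labels, and "knockout" below means the title. Adipocyte markers were high in every library, but in CD wild type 2 they summed to 252618, against 620694 to 971573 in the other CD libraries. Some libraries held high levels of marker genes of other tissues. Skeletal muscle markers summed to 5622 in CD wild type 2, against at most 584 in the other CD libraries. B cell markers summed to 2121.5 in CD wild type 1, against at most 230 in the other CD libraries. The part of these markers in the CD results was not tested. Epididymis markers summed to 154054 and 141811 normalised reads in CD knockout 1 and 2 and 43745 in CD wild type 2, where the other 3 CD libraries had at most 50.6. They summed to 102265 and 31308 in Epi knockout 2 and 3, where the other 4 Epi libraries had at most 36.8. Fits without those libraries, given below, keep knockout 3 alone in CD and knockout 1 alone in Epi. They give an effect size only, and the part of these markers was not tested. CD knockout 1 and 2 were also nearly alike, with a chi-square per degree of freedom of 6.8 against 163 to 1110 for other CD pairs. Whether they are 1 tissue sample is not known, and the CD knockout would then be 2 samples and not 3. Counted as 1 replicate, they left 0 members and 0 genes called in CD with limma, as before. In Adipo the summed endothelial markers were 30207 and 12692 in knockout, against 3131, 1798 and 3359 in wild type. In bulk samples fewer cells of a type and less RNA per cell cannot be told apart.

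Levels are given as normalised reads, that is reads divided by the library's size factor, and compared between genes only per kilobase of transcript. Per kilobase, Rxra (the main RXR) and Thra (thyroid hormone receptor alpha) were the 2 highest members in wild type in each of the 5 tables. In HFD, Rxra stood at 819 ± 10.9 normalised reads per kilobase in knockout and 919 ± 102 in wild type (SD, n = 4 and 4), and Thra at 733 ± 76.6 in knockout and 758 ± 107 in wild type. These neighbours do not differ beyond their spread in wild type. Next in HFD wild type came Rxrg, Rxrb, Nr2f6, Rarg and Nr3c1, between 244 and 288 per kilobase, in an order that their spread does not separate. The lowest tested members of most tables were Vdr, Nr5a2, Nr6a1 and Esrrg. Vdr, the vitamin D receptor, had 2.64 per kilobase in HFD knockout and 2.86 in HFD wild type.

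A member was tested where its mean was at least 10 normalised reads, which 28 of 31 reached in CD, HFD, Epi and Adipo and 27 in BA, where Vdr reached at most 19.7 but fell short on average. Pgr, Nr0b2 and Nr1i3 were tested in no table. Pgr, the progesterone receptor, reached 14.8 normalised reads in Epi knockout 2 and at most 4.97 in all other libraries where it was listed. Nr0b2, or SHP, which lacks a DNA-binding domain, reached at most 9.69. Nr1i3, the constitutive androstane receptor of liver, reached 27.5 in CD wild type 1 and 25.5 in Epi wild type 3. In BA its 4 knockout values, 6.52, 3.54, 3.70 and 3.13, lay above its 4 wild-type values, 2.31, 1.53, 0.517 and 0.474, without a test. Since 72.5% of its transcript overlaps Tomm40l on the other strand and it is not known whether counting used strand, those reads are uncertain.

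Of the 5 tables, HFD held the only members that passed the test, Nrip1 and Nr3c1, both higher in knockout. The test was limma on log2(value + 1) with Benjamini-Hochberg adjustment over all genes of the table, and log2 fold changes on that scale understate changes of low genes. In HFD 2 of 28 tested members passed, both higher, against 3.47% of all 13946 genes in either direction and 1.01% in the higher direction. In Adipo 0 of 28 passed (0.638% of 14105 genes), in BA 0 of 27 (0.0323% of 12377), and in CD and Epi 0 of 28, where 0% of 15467 and of 17513 genes passed. In HFD 0 members passed lower, against 2.46% of all genes, and in Adipo the shares of all genes were 0.546% higher and 0.0922% lower. These counts are too small to set the members apart from other genes. On recovered reads edgeR called 3 members in HFD (3.36% of all genes), 1 in Adipo (Ncoa3; 0.986%) and 0 in CD, Epi and BA (0%, 0% and 0.0287%). DESeq2 called 5 in HFD (9.19%), 6 in Adipo (11.6%), 2 in Epi (Rxrb and Thra; 3.53%), 2 in BA (Esr1 and Rarb; 2.08%) and 0 in CD (4.92%).

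At an unadjusted p under 0.05 the share of members came to 39.3% in HFD (11 of 28; 20.8% of all genes), 32.1% in Adipo (9 of 28; 24.2%), 22.2% in BA (6 of 27; 9.03%), 17.9% in Epi (5 of 28; 9.21%) and 3.57% in CD (1 of 28; 9.61%). In Adipo 8 of these 9 were higher in knockout (11.4% of all genes) and 1 lower (12.8%), and in Epi 5 were higher (3.47%) and 0 lower (5.74%). In HFD 5 were higher (6.23%) and 6 lower (14.6%), in BA 3 and 3 (5.62% and 3.42%), and in CD 1 and 0 (7.23% and 2.38%). Groups that did not overlap at all gave a like picture in Adipo, with 15 members wholly higher (20.8% of all genes) and 1 wholly lower (27.3%), 16 in all (48%). In Epi 6 were wholly higher (7.29%) and 1 lower (9.16%), 7 in all (16.5%). In HFD 2 were wholly higher (4.03%) and 5 lower (10%), 7 in all (14%). BA had 2 and 2 (3.26% and 2.23%), 4 in all (5.49%), and CD 1 and 0 (12.4% and 4.54%), 1 in all (16.9%). A log2 fold change above 0 was found for 20 of 28 members in Adipo (46.7% of all genes), 20 of 28 in Epi (46.8%), 12 of 28 in HFD (36.9%), 11 of 27 in BA (51.3%) and 13 of 28 in CD (61.7%). The median log2 fold change of the members was 0.33 in Adipo and 0.21 in Epi, beside -0.04 and -0.03 for all genes tested. It was -0.04 in HFD, -0.11 in BA and -0.03 in CD, beside -0.09, 0.01 and 0.11 for all genes. TMM scaling moved the median of all genes by 0.11 in CD and 0.09 in HFD, to 0.00 in both, and under TMM the members above 0 numbered 22 in Adipo, 21 in Epi, 18 in HFD, 9 in BA and 11 in CD.

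**Figure D1:**
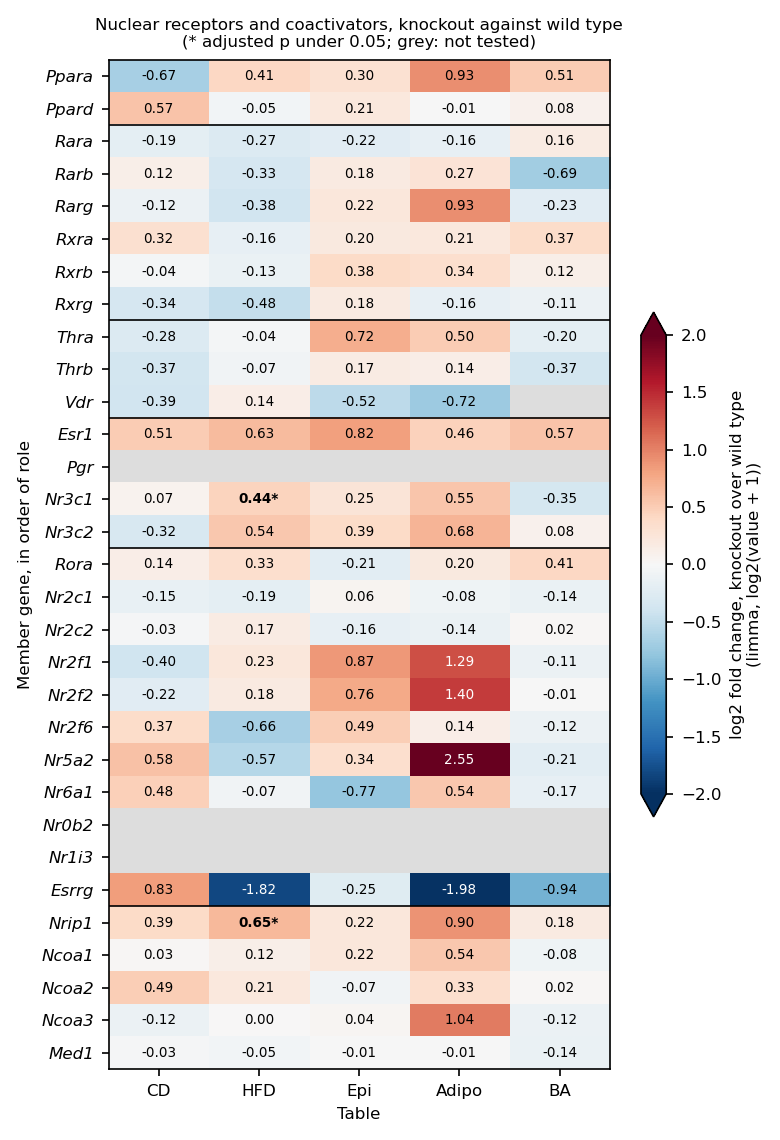
Log2 fold changes of the 31 members (rows, grouped by role) in the 5 tables (columns), knockout over wild type, with limma on log2(value + 1). The stars mark the only calls, Nr3c1 (0.44) and Nrip1 (0.65) in HFD; red cells are frequent in Adipo and Epi, and Esrrg is the darkest blue in HFD (-1.82) and Adipo (-1.98).

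Nrip1 encodes RIP140, which docks on liganded nuclear receptors and in adipocytes holds down genes of fat oxidation. Its gene (ENSMUSG00000048490) lies on the minus strand of chromosome 16, 76287400 to 76373827 (GRCm38). In HFD it had 2307, 2048, 2177 and 2466 normalised reads in the knockout libraries, against 1560, 1482, 1504 and 1186 in the wild-type libraries. Every knockout value lay above every wild-type value. Nrip1 rose to a mean of 2250 ± 179 in knockout, against 1433 ± 168 in wild type (SD, n = 4 and 4), a log2 fold change of 0.65 ± 0.11 (SE; 95% interval 0.41 to 0.90; limma adjusted p = 0.0155). The adjusted p became 0.0545 without knockout 1, 0.0558 without knockout 3 and 0.069 without knockout 4, with log2 fold changes of 0.61 to 0.67. Nr3c1, the glucocorticoid receptor (ENSMUSG00000024431, chromosome 18, 39410545 to 39519421, minus strand), had 2221, 2023, 2029 and 2231 normalised reads in HFD knockout, against 1553, 1747, 1517 and 1468 in wild type. Here too the groups did not overlap. Nr3c1 rose to 2126 ± 116 in knockout, against 1571 ± 122 in wild type (0.44 ± 0.09; 95% interval 0.24 to 0.64; limma adjusted p = 0.0322). That call rested on most of the libraries: the adjusted p was 0.102, 0.0632, 0.0927 and 0.127 without knockout 1, 2, 3 and 4, and 0.0837 and 0.0578 without wild type 3 and 4.

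**Figure D2:**
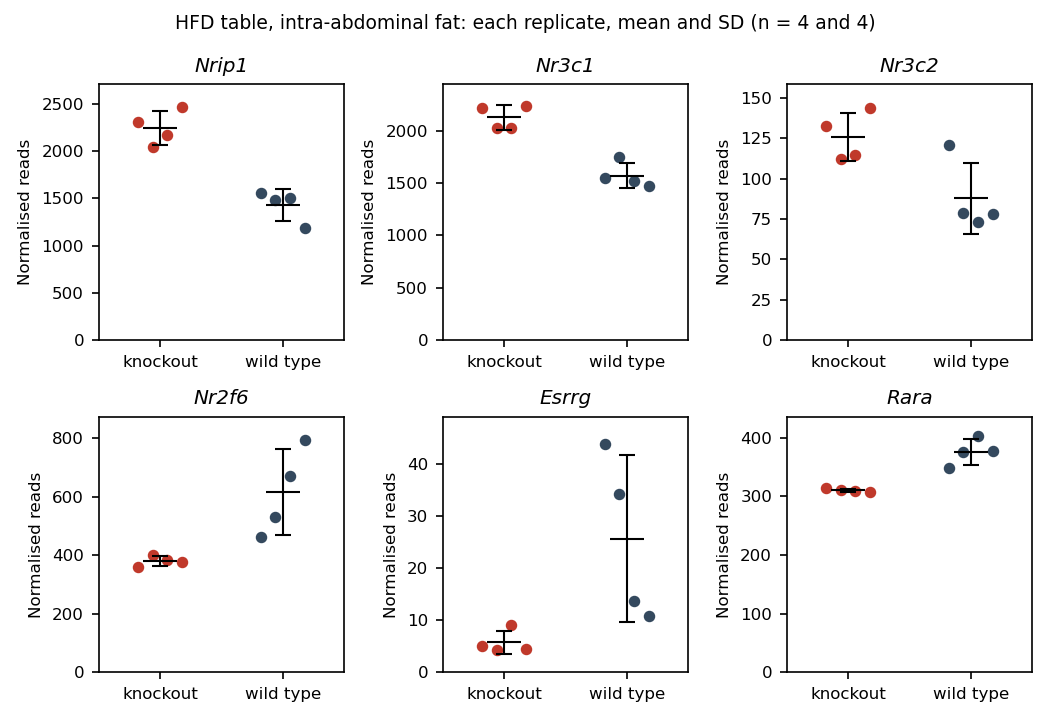
Normalised reads of 6 members in the HFD table, by replicate (points), with the mean and SD (bars), knockout left and wild type right (n = 4 and 4). Nrip1 and Nr3c1 lie wholly higher in knockout, Nr2f6, Esrrg and Rara wholly lower, and the Nr3c2 value of wild type 1 (121) lies within the knockout range.

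In HFD the markers of other cells also differed in part. Summed mesothelial markers were 1861 to 7758 normalised reads in knockout and 1483 to 4480 in wild type, with all 6 genes above 0 on the log2 scale and a median of 0.70. Stromal markers summed to 14494 to 26200 in knockout and 12534 to 24317 in wild type (6 of 7 higher, median 0.49), and macrophage markers to 13766 to 15424 in knockout and 8020 to 16149 in wild type (7 of 8 higher, 8 under TMM, median 0.37). Adipocyte markers summed to 820999 to 962566 in knockout and 650912 to 1003370 in wild type. T cell markers summed to 99.2 to 173 in knockout and 68.5 to 132 in wild type (4 of 5 higher, 5 under TMM, median 0.82), and the B cell markers tested were higher for 5 of 5 (median 0.82). Epithelial markers reached 1644 in wild type 1, against at most 367 in the other 7 libraries, and B cell markers 490 in knockout 1, against at most 140. Their part in the results was not tested. Without wild type 1 and knockout 1 together Nrip1 kept its call (0.69, limma adjusted p = 0.0353), Nr3c1 did not (0.41, adjusted p = 0.0815) and Nr2f6 was called (-0.76, adjusted p = 0.0388).

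The windows of 250 bases before the start are shown for Nrip1, which passed, and Nr2f6, which came nearest to passing on the lower side. For Nr3c1, which also passed, no window was at hand. Both sequences are from RefSeq (GRCm38.p6), are read on the minus strand, 5′ to 3′, and carry the receptor hexamer GGGTCA in capitals. They span chr16:76373828-76374077 for Nrip1 and chr8:71381953-71382202 for Nr2f6, each up to the base before the RefSeq start. That start is 0 and 8 bases from the start of the annotated gene. Its distance from the start of the measured transcript was not computed. The other Nrip1 window in RefSeq, chr16:76373050-76373299, held no GGGTCA.
Nrip1: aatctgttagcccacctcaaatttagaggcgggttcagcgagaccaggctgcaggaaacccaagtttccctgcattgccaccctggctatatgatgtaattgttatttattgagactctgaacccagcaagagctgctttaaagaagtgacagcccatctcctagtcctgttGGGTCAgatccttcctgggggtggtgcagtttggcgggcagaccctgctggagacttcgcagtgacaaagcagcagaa
Nr2f6: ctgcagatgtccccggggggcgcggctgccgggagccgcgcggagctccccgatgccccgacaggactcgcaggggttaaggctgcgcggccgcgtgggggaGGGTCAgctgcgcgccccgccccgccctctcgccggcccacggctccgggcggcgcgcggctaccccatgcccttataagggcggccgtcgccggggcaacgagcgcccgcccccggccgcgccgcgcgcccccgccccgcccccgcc

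The hexamer lies 78 to 73 bases before the Nrip1 start and 148 to 143 before the Nr2f6 start, in the gene's own direction. RefSeq windows were at hand for 27 of 31 members, 43 windows in all. Nr3c1, Thra, Ncoa2 and Ncoa3 had none. On either strand GGGTCA stood in 9 of these 43 (20.9%), against 11.6% of all 32851 windows, in 9 members (Nr0b2, Nr2f6, Nr3c2, Nr5a2, Nrip1, Rara, Rarb, Rxra and Rxrg). AGGTCA, the classical receptor hexamer, stood in 6 of 43 (14%), as in 14% of all windows. TGTTCT, the hexamer of steroid response elements, stood in 3 of 43 (6.98%), against 16.1%. Direct repeats, that is AGGTCA, then 0 to 5 bases of any letter, then AGGTCA, always hold the single hexamer too and stood in 0 of 43, and in 0.00609% to 0.0335% of all windows. A match is only a run of letters and shows no binding.

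Among the other steroid receptors, Esr1 (oestrogen receptor alpha, ENSMUSG00000019768, chromosome 10, 4611593 to 5005614, plus strand) had higher means in knockout in all 5 tables without passing in any. Its groups stood furthest apart in BA, with 569, 559, 634 and 605 normalised reads in knockout, against 495, 404, 377 and 330 in wild type. There the groups did not overlap (log2 fold change 0.57 ± 0.13, limma p = 0.00149, adjusted p = 0.171), while DESeq2 gave an adjusted p of 0.0345. Adipocyte markers were also wholly higher in BA knockout, with sums of 488782 to 731747 in knockout and 416950 to 482322 in wild type (9 of 9 genes above 0, median 0.35). T cell markers summed to 67.4 to 135 in knockout and 42.7 to 81.2 in wild type (6 of 6 above 0, median 0.66). Skeletal muscle markers summed to 2706 in knockout 3, which had the highest Esr1, and 2754 in wild type 2, against at most 155 in the other 6 BA libraries. The part of these markers in the BA results was not tested, and Esr1 came to 0.54 without knockout 3. In HFD it had 993, 793, 579 and 670 in knockout and 741, 341, 466 and 449 in wild type (0.63 ± 0.24, adjusted p = 0.172). Wild type 1 overlapped the knockout values, and without that library limma called Esr1. In CD it had 693, 657 and 772 in knockout and 431, 370 and 758 in wild type (0.51 ± 0.28). In Epi it had 2801, 4675 and 1741 in knockout and 1233, 1638 and 2046 in wild type (0.82 ± 0.37), the highest value being that of knockout 2, the library with the most epididymis markers. In Adipo it had 1961 and 1410 in knockout and 1241, 990 and 1444 in wild type (0.46 ± 0.22). Only Esr1 and Nrip1 had a log2 fold change above 0 in every table, 2 of 27 members tested in all 5 (7.41%), against 4.64% of all 11823 such genes. Med1 was below 0 in every table (3.7%, against 5.8% of all genes) but not under TMM scaling, where Ppard joined Esr1 and Nrip1 above 0. Since same-numbered Epi and Adipo samples of wild type deviate together, these are not 5 independent tables.

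**Figure D3:**
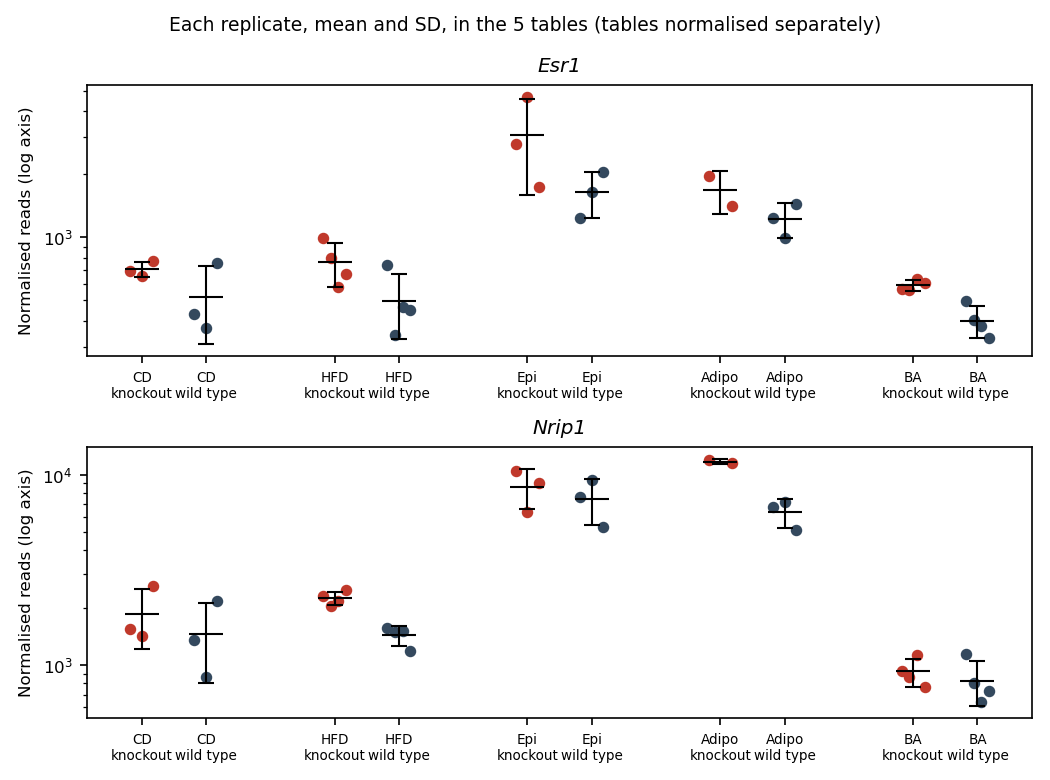
Normalised reads of Esr1 and Nrip1 in each replicate (points) of the 5 tables, with the mean and SD, on log axes, knockout left of wild type in each pair. The tables were normalised separately, so levels are compared only within a pair; the groups stand wholly apart for Esr1 in BA and for Nrip1 in HFD and Adipo.

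Nr3c2, the mineralocorticoid receptor, had 132, 112, 115 and 144 normalised reads in HFD knockout and 121, 79.0, 73.1 and 78.4 in wild type (0.54 ± 0.17, adjusted p = 0.128). Wild type 1 stood apart from the other wild-type libraries, and without it Nr3c2 was called (0.70, adjusted p = 0.0187). In Adipo it had 457 and 413 in knockout and 294, 239 and 280 in wild type (0.68 ± 0.18, adjusted p = 0.113), and in Epi 581, 566 and 515 in knockout, against 418, 492 and 369 in wild type (0.39 ± 0.17). In CD its values pointed the other way, 144, 133 and 183 in knockout and 153, 234 and 190 in wild type (-0.32 ± 0.23). It came to 0.10 without the 3 libraries with epididymis markers, which leaves 1 knockout. Nr3c1 outside HFD passed nowhere. Its log2 fold change was 0.55 ± 0.21 in Adipo (5805 and 3974 in knockout, 3381, 3607 and 2865 in wild type), 0.25 ± 0.22 in Epi and 0.07 ± 0.32 in CD, where it was -0.05 under TMM. In BA it was -0.35 ± 0.17, with 1014, 911, 933 and 776 in knockout and 1195, 815, 1313 and 1366 in wild type, and only wild type 2, 1 of the 2 libraries high in skeletal muscle markers, within the knockout range. The difference between BA and HFD was -0.78 ± 0.20 and did not pass (limma interaction, adjusted p = 0.0956), except without BA wild type 2.

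Genes known as glucocorticoid targets were listed beside the receptor, a list made with earlier results of these data known. In Adipo 2 of 14 rose and 0 fell, where 0.638% of all genes passed. Of the 14, 12 were above 0 (46.7% of all genes), with a median log2 fold change of 1.05, beside -0.04 for all genes. There 8 of 14 had an unadjusted p under 0.05 (24.2% of all genes), edgeR called 3 (0.986%) and DESeq2 8 (11.6%). Cebpd, an adipogenic transcription factor, rose to 3754 ± 944 normalised reads in knockout, against 594 ± 184 in wild type (SD, n = 2 and 3; 2.68 ± 0.29, limma adjusted p = 0.03). Dusp1, a phosphatase of MAP kinases, rose to 8584 ± 1080 in knockout, against 3493 ± 533 in wild type (1.30 ± 0.18, limma adjusted p = 0.0495). Endothelial and mesothelial markers were also higher in Adipo knockout, for 6 of 6 genes each (medians 2.79 and 2.16). Stromal markers were higher for 6 of 7 (1.05), macrophage markers for 7 of 8 (0.98) and adipocyte markers for 6 of 9 (0.10). Their part in the rise of these targets was not tested. In HFD 1 of 14 rose, Ddit4, an inhibitor of mTORC1 signalling (0.96 ± 0.08, adjusted p = 0.00229), and 1 fell, Hif3a, a hypoxia-inducible factor (-1.39 ± 0.18, adjusted p = 0.00619), against 3.47% of all genes. In HFD 8 of 14 had an unadjusted p under 0.05 (20.8% of all genes), edgeR called 4 (3.36%) and DESeq2 7 (9.19%). The shares of all genes in the other tables are given above, for this list and the later ones. In CD, Epi and BA 0 of 14 passed with limma or edgeR, with medians of -0.37, -0.03 and -0.06; 4, 0 and 2 had an unadjusted p under 0.05, and DESeq2 called 2, 0 and 0. Of the oestrogen and progesterone targets (3 to 6 tested) 0 passed with limma or edgeR in any table, 1 or 2 a table had an unadjusted p under 0.05, and DESeq2 called 2 in CD and 2 in Adipo. Ccn5, a secreted matrix protein, had the smallest p of these in BA, at 261 ± 205 in knockout and 60.3 ± 39.1 in wild type (2.02 ± 0.49, adjusted p = 0.187).

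All 6 retinoid receptors had lower means in HFD knockout, also under TMM scaling, and none passed. Their median log2 fold change was -0.30, or -0.22 under TMM, beside -0.09 and 0.00 for all genes. Of all genes tested in HFD, 36.9% were above 0 with the deposited scaling. Rara had 313, 310, 309 and 308 normalised reads in knockout, against 348, 376, 402 and 378 in wild type. The knockout values were nearly equal and wholly below wild type (-0.27 ± 0.08, limma adjusted p = 0.0967), and without wild type 1 Rara was called (-0.31, adjusted p = 0.0489). Rxrg, the RXR of muscle and fat, had 275, 358, 353 and 327 in knockout, against 361, 360, 603 and 551 in wild type (-0.48 ± 0.18, adjusted p = 0.182). Rarg averaged 521 ± 74.0 in knockout and 676 ± 63.5 in wild type, with overlapping groups (-0.38 ± 0.12, limma adjusted p = 0.113). Rxra, Rxrb and Rarb also had overlapping groups, with -0.16 ± 0.10, -0.13 ± 0.14 and -0.33 ± 0.22.

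In CD too, 4 of 6 retinoid receptors were below 0 (median -0.08, or -0.19 with 4 below under TMM), while BA had 3 above and 3 below. Of all genes, 61.7% were above 0 in CD, 51.3% in BA and 46.8% in Epi. In Epi 5 of 6 retinoid receptors were above 0, led by Rxrb. It had 2156, 1888 and 2081 normalised reads in knockout, against 1617, 1442 and 1637 in wild type. Its groups did not overlap (0.38 ± 0.11, limma adjusted p = 0.433). Rxrb came to 0.46 without knockout 2 and 3, which leaves 1 knockout. In BA Rxra had 2263, 2128, 2543 and 2233 in knockout, against 1946, 1887, 1616 and 1664 in wild type, without overlap (0.37 ± 0.12, adjusted p = 0.36; 0.32 without knockout 3, 1 of the BA libraries high in skeletal muscle markers). Rarb in BA had 55.9, 46.7, 42.1 and 76.4 in knockout, against 75.5, 77.4, 112 and 89.9 in wild type (-0.69 ± 0.21, adjusted p = 0.308). Only 1 knockout value lay within the wild-type range. As 57.7% of the Rarb transcript overlaps Top2b on the other strand, its reads are uncertain. The BA minus HFD difference of Rxra was 0.53 ± 0.15 (limma interaction, adjusted p = 0.128) and passed only without HFD wild type 1. In Adipo Rarg had 873 and 670 in knockout and 669, 340 and 281 in wild type (0.93 ± 0.39), while Rxrg had 834 and 1229 in knockout and 1094, 1210 and 1084 in wild type (-0.16 ± 0.19, or 0.12 without knockout 1).

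Among all genes of HFD, 36.9% were above 0 with the deposited scaling. Retinoic acid targets were lower in HFD knockout for all 7 tested, also under TMM, with a median of -0.56, or -0.47 under TMM. Of these 1 fell, Hic1, a transcriptional repressor, at 228 ± 15.0 normalised reads in knockout and 369 ± 23.5 in wild type (SD, n = 4 and 4; -0.69 ± 0.09, limma adjusted p = 0.00577). In Epi 8 of 9 were above 0 with a median of 0.24 (8 under TMM), in Adipo 3 of 7 with -0.02 (4 under TMM, 0.02), in BA 3 of 7 with -0.10 (3 under TMM) and in CD 6 of 8 with 0.14 (4 under TMM, 0.03). The shares of all genes above 0 in these tables were 46.8%, 46.7%, 51.3% and 61.7%. With limma and edgeR 0 passed in these tables, 1, 2, 0 and 2 had an unadjusted p under 0.05, and DESeq2 called 1, 2, 0 and 2. Cyp26b1, which breaks down retinoic acid, averaged 84.5 ± 9.14 in Adipo knockout and 8.73 ± 3.72 in wild type (3.22 ± 0.55, limma adjusted p = 0.0674). Endothelial and mesothelial markers were also higher in Adipo knockout, and their part in the Cyp26b1 result was not tested. Of the enzymes and carriers of ligands (16 tested in HFD) 1 rose in HFD, Dio2, which activates thyroid hormone, at 27.9 ± 6.73 in knockout and 7.63 ± 5.90 in wild type (1.93 ± 0.42, adjusted p = 0.041). That call was lost with edgeR, which called 0 of the 16 in HFD, while 7 had an unadjusted limma p under 0.05 and DESeq2 called 2. In Epi, Adipo, BA and CD 0 passed with limma or edgeR, 3, 4, 3 and 4 had an unadjusted p under 0.05, and DESeq2 called 1, 2, 2 and 3.

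Among the receptors of thyroid hormone and vitamin D none passed. Thra had the smallest p of the members in Epi, with 4574, 4623 and 6073 normalised reads in knockout, against 3433, 3416 and 2460 in wild type. Its groups did not overlap (0.72 ± 0.18, limma p = 0.0061, adjusted p = 0.397). DESeq2 gave an adjusted p of 0.0227. The log2 fold change was 0.58 without knockout 2 and 3, which leaves only knockout 1. It was 0.61 for a transcript that shares no bases with Nr1d1, the neighbour on the other strand that overlaps 10.7% of the measured one. Epi wild type 3, with the lowest Thra value, held macrophage markers of 96895, against 43242 to 50118 in the other Epi libraries. Their part in the result was not tested. In Adipo Thra had 3189 and 3391 in knockout, against 2872, 2658 and 1635 in wild type (0.50 ± 0.26). In HFD, CD and BA it was -0.04 ± 0.12, -0.28 ± 0.23 and -0.20 ± 0.11. The Epi minus HFD difference of Thra, 0.76 ± 0.22, did not pass (limma interaction, adjusted p = 0.166).

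Thrb, the other thyroid hormone receptor, pointed lower in BA, with 233, 270, 276 and 254 normalised reads in knockout, against 352, 293, 323 and 366 in wild type. The groups did not overlap (-0.37 ± 0.11, limma adjusted p = 0.316). In CD it had 220, 220 and 332 in knockout, against 293, 319 and 373 in wild type (-0.37 ± 0.21). The 2 lowest values there were knockout 1 and 2, and without the 3 libraries with epididymis markers the log2 fold change was 0.01. That fit keeps only knockout 3. Vdr in Epi had 9.28, 150 and 47.2 in knockout, against 58.3, 46.4 and 77.5 in wild type, with its highest value in knockout 2. Of the thyroid hormone targets (8 or 9 tested) 0 passed with limma or edgeR in any table. In HFD 4 had an unadjusted p under 0.05 and DESeq2 called 3, and Fasn, fatty acid synthase, had the smallest p of those above 0 (1.02 ± 0.25, limma adjusted p = 0.0595). In Epi, Adipo, BA and CD 0, 2, 2 and 3 had an unadjusted p under 0.05, and DESeq2 called 0, 2, 0 and 1.

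Neither fatty acid receptor passed. Ppard, which is expressed widely, had 830, 815 and 445 normalised reads in CD knockout, against 453, 390 and 519 in wild type (0.57 ± 0.28, limma adjusted p = 0.538). Its high values were those of knockout 1 and 2, and without the 3 libraries with epididymis markers it came to -0.13. That fit keeps only knockout 3. Ppara, the regulator of fat oxidation in liver and brown fat, had 30.2, 32.5 and 44.9 in CD knockout, against 42.2, 85.5 and 50.6 in wild type (-0.67 ± 0.36), and -0.04 without those libraries. In Adipo it had 330 and 382 in knockout, against 202, 247 and 128 in wild type, without overlap (0.93 ± 0.32, adjusted p = 0.155). In HFD Ppara averaged 81.1 ± 5.27 in knockout and 62.1 ± 16.8 in wild type (0.41 ± 0.19, adjusted p = 0.245).

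Their relative Pparg, not a member, rose in HFD to 3728 ± 189 normalised reads in knockout, against 2422 ± 380 in wild type (SD, n = 4 and 4; 0.63 ± 0.12, limma adjusted p = 0.0272). It was the only gene to pass among 13 other nuclear receptors tested there with limma, and DESeq2 called 3. Per kilobase, Ppard then made up 8.74 ± 0.858% of the 3 PPARs in HFD knockout and 13.3 ± 1.45% in wild type, and Pparg 90.0 ± 0.905% in knockout and 85.3 ± 1.53% in wild type. The level of Ppard itself hardly differed (-0.05 ± 0.09). Of 18 PPAR targets tested in HFD 0 rose and 2 fell, among them Pdk4, a kinase that holds down glucose oxidation (796 ± 39.3 in knockout, 1330 ± 159 in wild type; -0.73 ± 0.10, adjusted p = 0.00661). Their median was -0.19 with 4 of 18 above 0, or -0.10 with 7 under TMM. Of all genes in HFD, 36.9% were above 0 and 2.46% passed lower. In Epi, Adipo, BA and CD 0 of 17 to 21 passed with limma or edgeR, 2, 2, 5 and 2 had an unadjusted p under 0.05, and DESeq2 called 0, 0, 2 and 2. Such a p was found for 9.21%, 24.2%, 9.03% and 9.61% of all genes there, and DESeq2 called 3.53%, 11.6%, 2.08% and 4.92%. Angptl4, a lipase inhibitor and PPAR target, had the smallest p of those above 0 in BA, at 8027 ± 645 in knockout and 4405 ± 1187 in wild type (0.91 ± 0.21, adjusted p = 0.165).

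**Figure D4:**
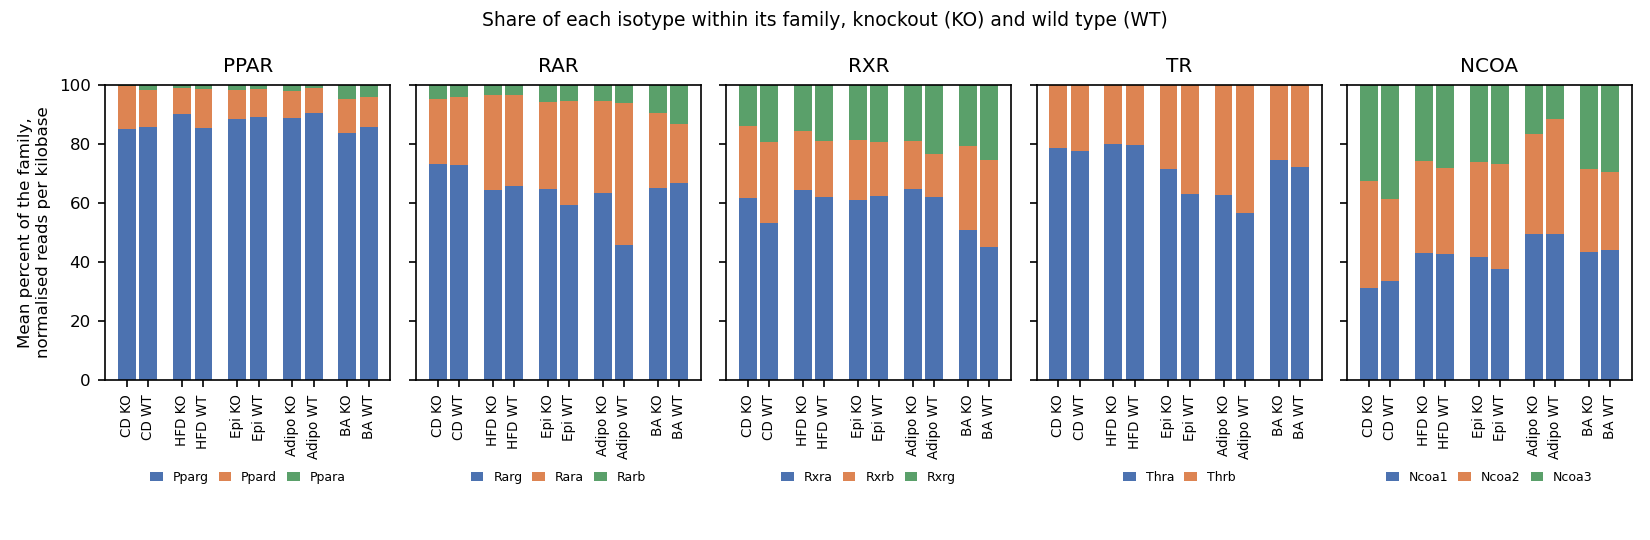
Mean percent that each isotype takes of its family's normalised reads per kilobase (stacked bars to 100%), for PPAR, RAR, RXR, thyroid hormone receptors (TR) and p160 coactivators (NCOA), knockout left of wild type in each table. The Ppard share is smaller in HFD knockout (8.74%) than in wild type (13.3%), and the Thra share larger in Epi knockout (71.3%) than in wild type (62.8%).

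Other shares moved within families as well, given here without a test. Thra held 71.3 ± 1.47% of the 2 thyroid hormone receptors in Epi knockout and 62.8 ± 4.13% in wild type (SD, n = 3 and 3). Rxra held 61.5 ± 3.10% of the RXRs in CD knockout and 53.2 ± 2.58% in wild type, and 50.9 ± 5.26% in BA knockout and 45.0 ± 4.02% in wild type. Ncoa3 held 16.6 ± 3.28% of the p160 coactivators in Adipo knockout (n = 2) and 11.6 ± 1.37% in wild type (n = 3), and a similar share of 26.1 ± 0.943% in Epi knockout and 26.9 ± 3.71% in wild type. The Rara share in Adipo, 31.3 ± 5.68% in knockout and 48.0 ± 14.4% in wild type, varied widely within wild type, between 31.5% and 58.2%.

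The orphan receptors, which have no accepted hormone, gave no call with limma in any table. Of 9 tested, edgeR called 1 in HFD (3.36% of all genes), and DESeq2 called 3 in HFD (9.19%) and 3 in Adipo (11.6%). Esrrg and Nr2f6 came near the limma threshold in HFD. Nr2f6 (EAR2, ENSMUSG00000002393, chromosome 8, 71374123 to 71381960, minus strand) is a repressor related to the COUP factors, and its promoter window is printed above. In HFD it had 360, 401, 385 and 376 normalised reads in knockout, against 464, 533, 672 and 795 in wild type. The groups did not overlap and the knockout values were the more even (-0.66 ± 0.16, 95% interval -1.01 to -0.32, limma adjusted p = 0.0505). Small changes moved it past the threshold: the adjusted p was 0.0375 under TMM, 0.0314 for the mean over coding transcripts, 0.0334 with edgeR, 0.000592 with DESeq2 and 0.0121 without wild type 1. In CD it pointed the other way, with 615, 638 and 557 in knockout, against 404, 478 and 525 in wild type. The groups again did not overlap (0.37 ± 0.14, limma adjusted p = 0.517). Nr2f6 came to 0.28 without the 3 libraries with epididymis markers, which leaves 1 knockout. In Epi it had 974, 1349 and 1142 in knockout, against 835, 727 and 889 in wild type (0.49 ± 0.16, adjusted p = 0.472). The HFD minus CD difference was -1.03 ± 0.23 (limma interaction, adjusted p = 0.179) and the Epi minus HFD difference 1.16 ± 0.23 (adjusted p = 0.0934), and neither passed. They passed only without CD knockout 3 and without Epi knockout 1. As 41.2% of the measured transcript overlaps Ocel1 on the other strand, its reads are uncertain.

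Esrrg, an oestrogen-related receptor of oxidative tissues, was low in HFD, with 5.16, 4.32, 9.09 and 4.44 normalised reads in knockout, against 43.8, 34.3, 13.7 and 10.9 in wild type. All wild-type values were higher, and they spread widely (-1.82 ± 0.47, limma adjusted p = 0.0719, DESeq2 adjusted p = 0.00208). The highest, 43.8, was that of wild type 1, which held the most epithelial markers in HFD (1644). Wild type 2, with 34.3, had an epithelial sum of 99.1. The part of these markers in the HFD result was not tested. In Adipo Esrrg had 22.5 and 61.2 in knockout, against 146, 113 and 205 in wild type, also without overlap (-1.98 ± 0.51, adjusted p = 0.109, DESeq2 adjusted p = 0.00985). Skeletal muscle markers of Adipo summed to 917 and 2492 in knockout and 3018, 5483 and 2650 in wild type. Only 2 of these 8 marker genes were tested (median -2.81), and their part in the Esrrg result was not tested. In BA Esrrg had 16.8, 42.8, 29.4 and 24.8 in knockout, against 35.5, 30.7, 68.8 and 101 in wild type (-0.94 ± 0.40, adjusted p = 0.516). In CD its 3 high values, 66.6 and 67.8 in knockout 1 and 2 and 60.4 in wild type 2, were in the libraries with epididymis markers, against 6.35, 6.26 and 12.8 in the other 3. In Epi it had 109, 357 and 136 in knockout and 204, 227 and 194 in wild type, again highest in knockout 2.

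The COUP factors Nr2f1 and Nr2f2 had higher means in Epi and Adipo knockout. Nr2f2 (COUP-TFII, ENSMUSG00000030551, chromosome 7, 70351944 to 70366735, minus strand) is a factor of veins and mesenchyme. It had 1428, 1290 and 1065 normalised reads in Epi knockout, against 698, 970 and 591 in wild type (0.76 ± 0.21, limma adjusted p = 0.42). Without Epi knockout 2 and 3, which leaves knockout 1 alone, Nr2f2 came to 0.95. In Adipo it had 676 and 414 in knockout, against 207, 211 and 183 in wild type (1.40 ± 0.25, adjusted p = 0.0742). It was called under 4 of 13 alternatives, among them DESeq2 (adjusted p = 5.26e-05), but not on leaving out either knockout. Another of the 4 took same-numbered samples as a replicate block, though within a table these numbers did not pair samples. The groups did not overlap in either table. Nr2f1 had 321, 206 and 305 in Epi knockout, against 147, 180 and 123 in wild type (0.87 ± 0.27), and 189 and 160 in Adipo knockout, against 88.8, 115 and 33.8 in wild type (1.29 ± 0.55). Both had their higher Adipo knockout value in knockout 1, where endothelial markers were also highest. Endothelial markers were higher for 6 of 6 genes in Adipo (median 2.79) and mesothelial markers for 6 of 6 (median 2.16), with mesothelial sums of 1489 and 974 in knockout and 128, 171 and 620 in wild type. Stromal markers were higher for 6 of 7 (median 1.05), with sums of 12207 and 6875 in knockout and 5280, 3875 and 10025 in wild type. Macrophage sums were 9387 and 3749 in knockout and 1953, 1450 and 17193 in wild type. None of the genes of these 4 lists was at 0, and their part in the result was not tested. In whole fat of Epi the endothelial sums overlapped, at 48129 to 54284 in knockout and 45199 to 55084 in wild type. Nr2f1 and Nr2f2 were both lowest in Epi wild type 3, the Epi library with the most macrophage markers (96895), whose part was not tested.

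The remaining orphan receptors moved less or varied more. Rora, a receptor of the circadian clock, averaged 554 ± 71.4 normalised reads in HFD knockout and 441 ± 39.0 in wild type (0.33 ± 0.11, limma adjusted p = 0.152). In BA it had 523, 399, 557 and 350 in knockout and 323, 289, 369 and 379 in wild type (0.41 ± 0.17), and in Epi 1601, 1879 and 1732 in knockout, against 1861, 2484 and 1746 in wild type (-0.21 ± 0.16). Nr5a2, or LRH-1, had 99.2 and 21.3 in Adipo knockout and 10.1, 4.17 and 8.19 in wild type (2.55 ± 0.80, adjusted p = 0.141). The size of that difference rests on knockout 1. Nr6a1, the germ cell nuclear factor, had 53.0, 166 and 85.8 in Epi knockout and 454, 104 and 80.2 in wild type (-0.77 ± 0.74), with 1 high value in wild type 1. Nr2c2, or TR4, stood near 0 in every table (-0.16 ± 0.11 in Epi, -0.14 ± 0.14 in Adipo, 0.17 ± 0.13 in HFD), but 46.2% of its transcript overlaps Mrps25 on the other strand. Its relative Nr2c1 had 156, 135, 140 and 149 in HFD knockout and 161, 156, 161 and 187 in wild type (-0.19 ± 0.10).

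The coactivators gave no call with limma within a table, and Ncoa3 in adipocytes came nearest. Of the 5 coregulators, Nrip1 included, edgeR called 1 (0.986% of all genes) and DESeq2 2 (11.6%) in Adipo. Ncoa3 (SRC-3, ENSMUSG00000027678, chromosome 2, 165992636 to 166073242, plus strand) had 1004 and 825 normalised reads in Adipo knockout, against 440, 458 and 430 in wild type. The wild-type values were tight and both knockout values stood well above them (1.04 ± 0.15, 95% interval 0.67 to 1.40, limma adjusted p = 0.0555). It passed under TMM (adjusted p = 0.0424), with no filter (adjusted p = 0.0281), with edgeR (adjusted p = 0.0409), with DESeq2 (adjusted p = 4.59e-06) and without wild type 3 (adjusted p = 0.0306). In all it was called under 6 of 13 alternatives, 1 of them with same-numbered samples as a replicate block. Within a table these numbers did not pair samples. The 7 other alternatives, which did not call Ncoa3, include leaving out either knockout. In whole fat of the Epi table Ncoa3 had 1779, 1814 and 1753 in knockout, against 1701, 1574 and 1926 in wild type (0.04 ± 0.12). In HFD, CD and BA its log2 fold change was 0.00 ± 0.12, -0.12 ± 0.11 and -0.12 ± 0.19.

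The difference between the 2 tables was tested in 1 fit, where Ncoa3 was the only member to pass. The knockout effect was higher in Adipo than in Epi by 0.99 ± 0.17 on the log2 scale (limma interaction, adjusted p = 0.028), 1 of 28 members against 1.31% of 16783 genes. Same-numbered Epi and Adipo samples of wild type deviate together, less plainly those of knockout. With same-numbered samples as a replicate block the difference was 0.98 and did not pass (adjusted p = 0.0747). It also missed the threshold without Adipo knockout 1 (0.85, adjusted p = 0.16), wild type 1 (0.99, adjusted p = 0.0643) or wild type 2 (1.02, adjusted p = 0.0646), and without any single Epi library (0.92 to 1.06, adjusted p from 0.0525 to 0.0906). The higher endothelial and mesothelial markers of Adipo knockout stand beside this result, and their part in it was not tested. Both tables were normalised separately.

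Nrip1 in Adipo had 11949 and 11437 normalised reads in knockout, against 6718, 7210 and 5115 in wild type. The groups stood far apart (0.90 ± 0.19, limma adjusted p = 0.0861). The call came without wild type 3 (0.75, limma adjusted p = 0.0422) and with DESeq2 (adjusted p = 0.00175). It also came with the replicate block, whose numbers did not pair samples within a table. In Epi it had 10448, 6392 and 8993 in knockout and 7659, 9353 and 5301 in wild type, which overlap (0.22 ± 0.26). In CD it had 1541, 1426 and 2593 in knockout and 1346, 868 and 2175 in wild type (0.39 ± 0.40), and in BA 935, 863, 1135 and 770 in knockout and 1136, 808, 636 and 729 in wild type (0.18 ± 0.19). Ncoa1 in Adipo had 2609 and 2727 in knockout, against 2104, 1970 and 1504 in wild type (0.54 ± 0.18, adjusted p = 0.149). Ncoa2 in CD had 1050, 1029 and 506 in knockout and 604, 628 and 522 in wild type (0.49 ± 0.31). Its high values were those of knockout 1 and 2, and it was called only without knockout 3, which leaves that nearly alike pair. Med1 lay between -0.14 and -0.01 in all 5 tables.

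**Figure D5:**
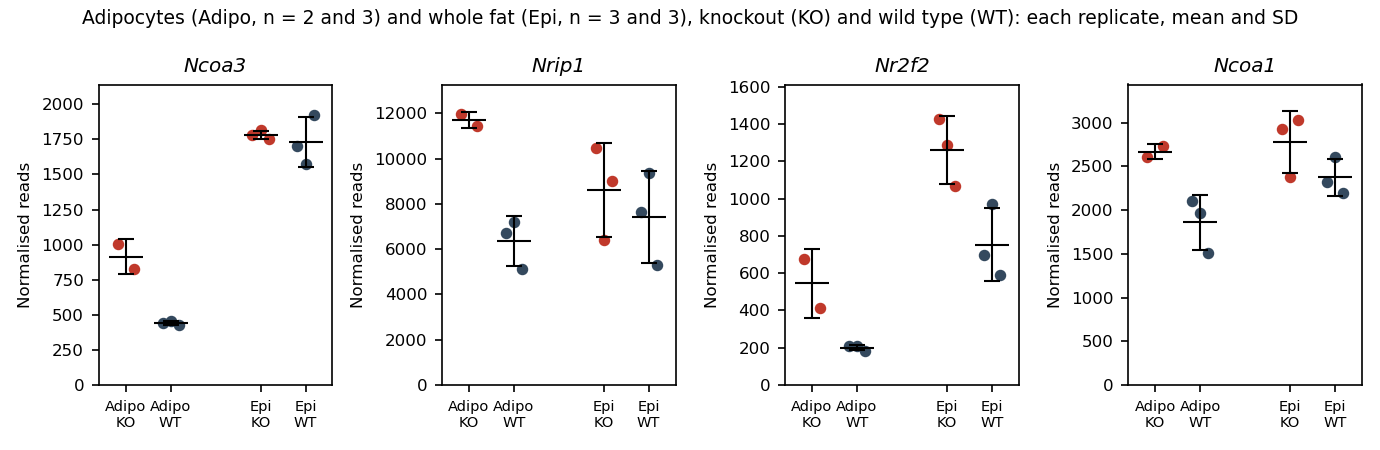
Normalised reads of Ncoa3, Nrip1, Nr2f2 and Ncoa1 by library (points), with the mean and SD, in adipocytes (Adipo, left pair) and whole intra-abdominal fat (Epi, right pair), knockout (KO) left of wild type (WT). Ncoa3 is 1004 and 825 in Adipo knockout, against 430 to 458 in Adipo wild type, and its groups overlap in Epi.

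Other coregulators were counted from lists. Of 16 other coactivators 2 rose in HFD and 0 fell, Ppargc1b (PGC-1 beta), at 60.8 ± 6.67 normalised reads in knockout and 24.6 ± 4.27 in wild type (SD, n = 4 and 4; 1.28 ± 0.18, limma adjusted p = 0.00661), and Ncoa4, a coactivator that also carries ferritin to breakdown (0.76 ± 0.17, adjusted p = 0.0407). With edgeR only 1 of the 16 was called in HFD (3.36% of all genes), and with DESeq2 3 (9.19%), where limma called 3.47% of all genes. Of 8 corepressor genes 1 rose in HFD, Tbl1x, a partner of GPS2 in the complex, at 2621 ± 163 in knockout and 2010 ± 114 in wild type (0.38 ± 0.09, adjusted p = 0.049), where edgeR and DESeq2 called 2 each. In Epi, Adipo, BA and CD 0 of either list passed with limma or edgeR. Of the other coactivators 2, 6, 4 and 0 had an unadjusted p under 0.05 there and DESeq2 called 1, in Adipo, and of the corepressors 0, 0, 1 and 1 had one and DESeq2 called 0. Ppargc1a (PGC-1 alpha) averaged 434 ± 90.7 in Epi knockout and 215 ± 71.3 in wild type (1.05 ± 0.32, limma adjusted p = 0.45). Of the other coactivators 13 of 16 were above 0 in Adipo (median 0.38, 14 under TMM) and 2 of 16 in BA (median -0.20, 2 under TMM). The shares of all genes above 0 were 46.7% in Adipo and 51.3% in BA.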

How the data were processed

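Messenger RNA of mouse fat was sequenced from libraries of a stranded poly(A) kit, per the labels' protocols. HTSeq 0.5.3, DESeq 1.8.3, STAR 2.4.0k, bcl2fastq 2.17, SAMtools and the build GRCm38.p4 are listed, without roles, in the submitters' processing notes. No source used here says whether counting took strand into account. The deposited signal values are per Ensembl transcript, and the low values show read counts that the authors divided by a size factor per library, in 5 tables normalised separately. Whole read counts could be recovered from the deposited values in 96 of 99 libraries, where 100% of values were whole within 0.01 read; for the other 3 (from HFD knockout 2, HFD wild type 4 and BA wild type 4, 1 library each) this was not claimed.

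In CD, HFD and BA each replicate had 4 libraries that differed by no more than about sampling noise (chi-square per degree of freedom 1.04 to 1.1, genes of at least 50 reads), and these were averaged to 1 replicate. Of 100 samples 99 were used, and the third Adipo knockout was not analysed here. In Adipo 1 column named wild type fitted no sample label and was left out. Of 97669 transcripts 698 had no gene (0.333% of signal), and each gene was read from its 1 transcript of highest mean. Genes with a mean of at least 10 were tested with limma 3.58.1 (R 4.3.3; trend, robust) on log2(value + 1), genotype being the only term, with Benjamini-Hochberg adjustment and a threshold of 0.05. Differences between tables were interaction terms. The procedures were tested on simulated data. Sums of recovered reads per replicate were 29342792 to 63232066. They cover the 1 chosen transcript of each gene and leave out all other transcripts and those 3 libraries. Both the number of samples and depth limit precision.

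Alternatives were TMM scaling, a pseudocount of 5, no filter, the mean over coding transcripts, a replicate block, leaving out each replicate, edgeR 4.0.16 and DESeq2 1.42.0 on recovered reads, CD knockout 1 and 2 as 1 replicate, and HFD wild type 1 and knockout 1 both left out. Chosen after seeing the data were the transcript least overlapped by other genes and the 2 sets without libraries rich in epididymis markers. Each of those sets leaves 1 knockout. The members and gene lists were chosen with earlier results of these data known. Named were all members in counts, those that passed and up to 3 higher and 3 lower per table by p, up to 4 genes per pathway list that passed or else the 1 of smallest p on either side, and Gps2. Values of further members were added after they had been seen, and 1 gene that the rule names is not reported here. Same-numbered Adipo and Epi samples of wild type deviated together from their group means (r = 0.296, 0.411 and 0.597), each above the r of its other pairs. In knockout r was 0.268 and 0.105, but Adipo knockout 2 had 0.214 with Epi knockout 3. The 2 Adipo knockouts deviate by opposite amounts, so their r are not independent. Thus in wild type these numbers pair samples by the data, not by a label, and in knockout this is not settled. Promoters are RefSeq windows.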

Additional observations from a re-analysis of the deposited data

Results flagged for a closer look

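In HFD, Nr3c2 had 121 normalised reads in wild type 1, far from the 73.1 to 79.0 of the other 3 wild-type libraries, while the knockout libraries had 112 to 144. It was the only such gap among 28 groups of 4 samples looked at, no more than chance gives at about 1 in 20 groups. The same library held the most epithelial markers (1644). Nr3c2 is called only without it.

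The knockout effect on Ncoa3 was higher in Adipo than in Epi by 0.99 on the log2 scale, the only difference between tables to pass for a member (limma interaction, adjusted p = 0.028). With same-numbered Epi and Adipo samples as a replicate block it was 0.98 and did not pass (adjusted p = 0.0747), and it passed under 5 of 16 alternatives. It stood beside endothelial and mesothelial markers that were higher in Adipo knockout, and their part in it was not tested.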

How the results depend on the processing

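Over 38 named log2 fold changes, 585 values under alternatives were computed; 524 kept their direction and side of the threshold, 24 lost the call, 27 gained it and 10 changed sign. The sign changes were all of values that had not passed. CD Nr3c1 was -0.05 under TMM, -0.09 with edgeR and -0.09 with DESeq2, and ran from -0.25 (without wild type 2) to 0.35 (without wild type 3) on leaving out 1 replicate. Without CD knockout 1, knockout 2 and wild type 2, which leaves 1 knockout, Ppard was -0.13, Thrb 0.01 and Nr3c2 0.1. On leaving out 1 replicate Epi Nrip1 ran from -0.0045 (without wild type 3) to 0.42, and Adipo Rxrg from -0.43 to 0.12 (without knockout 1). The causes were not tested.

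Members called in HFD, 2 as reported, were 1 with no filter, 0 with the replicate block, 5 with DESeq2 and 0 to 6 on leaving out 1 replicate. In Adipo, 0 as reported, they were 1 under TMM, 2 with no filter, 5 with the replicate block, 1 with edgeR, 6 with DESeq2 and 0 to 3 on leaving out 1 replicate. In Epi and BA, DESeq2 called 2 in each. Leaving out 1 replicate gave 0 to 1 in CD, 0 to 3 for HFD minus CD, 0 to 1 for BA minus HFD, 0 to 1 for Epi minus HFD and 0 to 1 for Adipo minus Epi, which also fell to 0 with no filter and with the replicate block. Nrip1 in HFD had adjusted p from 4.51e-05 to 0.069 and Nr3c1 from 0.000183 to 0.127.

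Genes called moved as well. HFD's 484 became 268 with the replicate block, 1518 with DESeq2 and 126 to 1166 on leaving out 1 replicate. Adipo's 90 became 143 under TMM, 378 with no filter, 1395 with the block, 142 with edgeR, 1709 with DESeq2 and 3 to 718. CD's 0 became 897 with DESeq2 and up to 637 (without knockout 3), Epi's 0 became 529 and up to 22, and BA's 4 became 280 with DESeq2, 1 under TMM, 2 with no filter and 0 to 9. Between tables, HFD minus CD went to 3 with no filter and up to 1209 (without CD knockout 3), BA minus HFD from 63 to 19 to 151, Epi minus HFD up to 133, and Adipo minus Epi from 220 to 135 with no filter and 33 to 607.

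Within a table, replicate numbers did not pair samples (r from -0.521 to 0.528 between same-numbered knockout and wild type), so calls lost or gained with that block are not read as weaker or stronger effects. Where an arm kept 1 sample, it was assumed to vary like the other groups. A member that was not called is not shown to be alike in both groups at 2 to 4 replicates.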
